A study of Drosophila melanogaster with 12 samples.

Results

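The genes described here encode the vacuolar ATPase (V-ATPase) and the lysosomal cathepsins of Drosophila melanogaster, followed in Kc167 cells. The members are every gene whose current symbol starts with Vha, together with the cathepsin genes CtsL1 (formerly Cp1), CtsB (CG10992), cathD, 26-29-p (currently CtsK1) and CG6357. The rule covers 38 genes, of which 33 are Vha genes and 5 are cathepsin genes. A probe set assigned to a single gene measured 36 of them, 31 Vha genes and all 5 cathepsin genes, out of 11983 genes measured in this way. Vha68-1 and Vha68-2, which encode the catalytic A subunit, had no such probe set and were not analysed here. The members had 37 probe sets, because Vha16-1 had 2, and the brighter one was used.

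Kc167 is an established cell line of embryonic origin with features of blood cells (hemocytes). Cells received conditioned medium of 1 of 2 kinds for 30 min, UPD, which holds the JAK/STAT ligand Unpaired, or Mock, after which fresh Schneider's medium was given. The groups were UPD at 2 h, UPD at 4 h, UPD at 10 h, Mock at 2 h, Mock at 4 h and Mock at 10 h, with times counted from the addition of the conditioned medium. Each group had 2 biological replicates according to the labels, so 12 Affymetrix arrays were hybridised, all with RNA of the same line, and none of the groups carried a genetic change that the labels name.

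The V-ATPase is a rotary proton pump that acidifies lysosomes, endosomes and other compartments. Its V1 sector lies in the cytosol and hydrolyses ATP, its V0 sector lies in the membrane and carries the protons, and an accessory subunit assists its assembly and targeting. Cathepsins are proteases that work in the acid lumen of the lysosome, where they degrade material taken up by endocytosis, phagocytosis or autophagy, activities for which blood cells are known. In flies most V-ATPase subunits are encoded by several genes, and many of the duplicated copies are known for expression in particular tissues.

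Values are log2 levels as deposited, and the number of arrays limits their precision. Replicates correlated with r between 0.986 and 0.997 over the 6011 probe sets with a mean level over 6, except Mock at 10 h with 0.915. Of 18 genes fixed as blood cell markers, 8 had a mean over 6, including srp at 9.04 and Hml at 9.57. In contrast, 5 averaged below 0, namely lz, PPO1, gcm, NimA and Sr-CI. The remaining He, NimC1, NimB4, eater and PPO2 averaged between 1.07 and 2.86. Of 10 measured marker genes of muscle, neurons, fat body and gut, elav alone exceeded level 6, with a mean of 6.46. At 10 h the 18 blood cell genes averaged 2.87 and 3.56 in UPD, against 3.57 and 4.12 in Mock. They averaged 3.21 and 3.71 in UPD at 4 h, against 3.76 and 4.37 in Mock. The 2 h averages were 3.85 and 4.2 in UPD, against 3.98 and 3.8 in Mock. For the 8 over level 6 the median difference of UPD minus Mock was 0.04 at 4 h and −1.56 at 10 h. At 10 h the upper quartile over the probe sets was 6.10 and 6.63 in UPD, against 7.12 and 6.88 in Mock, and it lay between 7.07 and 7.56 on the other 8 arrays. The Act5C controls read RNA integrity as the excess of their 3′ over their 5′ signal, which at 10 h was 1.37 and 1.25 in UPD against 1.15 and 1.14 in Mock, and between 0.71 and 1.17 elsewhere. The hybridisation spike controls averaged 7.63 on Mock replicate 2 of 4 h, and between 9.06 and 9.93 on the other arrays. The part of these shifts in the results below was not tested.

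Every V-ATPase subunit with a measured gene, apart from A, had at least 1 gene at a bright level. The members fell into a bright and a dim set with nothing in between: 20 had a mean over level 6, the lowest at 7.46, and 16 had a mean of at most 3.66. Level 6, under which 68.0% of all probe sets lie, was chosen as the divide after the values were seen. In the V1 sector 7 of 11 measured genes were bright: Vha55 (subunit B), Vha44 (C), Vha36-1 (D), Vha26 (E), Vha14-1 (F), Vha13 (G) and VhaSFD (H). In the V0 sector 7 of 18 were bright: Vha100-1 and Vha100-2 (subunit a), Vha16-1 (the c proteolipid ring), VhaPPA1-1 (c″), VhaAC39-1 (d), VhaM9.7-b and VhaM9.7-c (e). Of the 2 measured accessory genes, VhaAC45 was bright. All 5 cathepsin genes were bright. Probe sets differ in their response, so the levels of different genes were not compared with each other.

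The 16 dim genes encode further copies of subunits that other Vha genes also encode. They comprised Vha68-3 (A), Vha36-2 and Vha36-3 (D), Vha14-2 (F), Vha100-3, Vha100-4 and Vha100-5 (a), Vha16-2, Vha16-3, Vha16-4 and Vha16-5 (c), VhaPPA1-2 (c″), VhaAC39-2 (d), VhaM9.7-a and VhaM9.7-d (e) and the accessory VhaAC45RP. Their values ran between −4.66 and 4.63, 11 of them had at least 1 value below 0, and 6 averaged below 0. The median SD between replicates was 0.88 for the dim members, against 0.074 for the bright members at 2 and 4 h and 0.459 at 10 h. No dim gene passed the test in any comparison on the deposited values, and their differences rest on values with this wide spread between replicates. With quantile normalization and a filter on low values together, VhaAC39-2 passed in UPD at 10 h against 2 h (1.71 higher, limma adjusted p = 0.0368). Among those whose arrays did not overlap at 10 h, the largest were Vha36-3 at 1.86 and 2.53 in UPD against −1.21 and 0.55 in Mock, and Vha16-4 at −1.46 and −0.73 in UPD against 0.55 and 1.31 in Mock. Their adjusted p-values were 0.294 and 0.245 in limma, so neither passed. Vha100-3 differed by 1.45 (adjusted p = 0.298) and VhaM9.7-d by 1.39 (adjusted p = 0.678), without overlap of their arrays. The widest range over the 12 arrays was that of Vha68-3, −2.96 to 3.22, and that of VhaAC39-2 was 2.65 to 4.63.

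**Figure D1:**
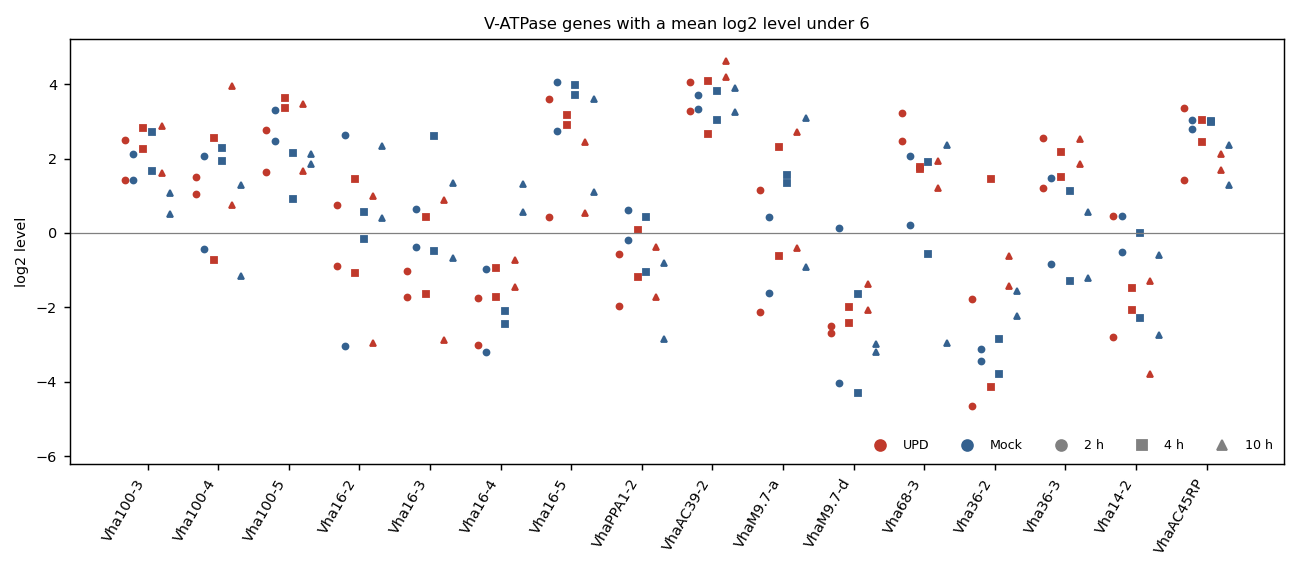
Deposited log2 level of the 16 V-ATPase genes with a mean under 6 on each of the 12 arrays, UPD in red and Mock in blue, with circles for 2 h, squares for 4 h and triangles for 10 h. The values lie between −4.66 and 4.63, and replicates of the same gene often lie several log2 units apart.

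The effect of UPD was tested at each time on all 18769 probe sets, with Benjamini-Hochberg adjustment over the whole table. At 2 h none of the 36 members passed the threshold of 0.05 in limma, and none had an unadjusted p under 0.05; 0.00533% of all probe sets passed. The 20 bright members differed by between −0.28 and 0.12, with a median of −0.08, against −0.09 over all probe sets over level 6. UPD lay below Mock without overlap in 8 of these 20 and in 49.7% of those probe sets. Among the Vha genes whose arrays did not overlap at 2 h, Vha100-2 differed by −0.28 and Vha26 by −0.12. The dim Vha68-3, Vha16-3 and VhaPPA1-2 had −1.52 to 1.70. All of these had an adjusted p of 1.0.

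At 4 h again none of the 36 members passed in limma, 1 had an unadjusted p under 0.05, and 0.0% of all probe sets passed. The median of the bright members was 0.09, against 0.03 over all probe sets over level 6. UPD lay above Mock without overlap in 4 of the 20 bright members and in 21.8% of those probe sets. Vha16-1 had 11.64 and 11.58 in UPD against 11.58 and 11.19 in Mock, a difference of 0.23. The value of 11.19 came from Mock replicate 2, the array with the low spike controls. The dim Vha100-5, Vha36-3, Vha16-4 and Vha16-5 differed by 1.96, 1.93, 0.94 and −0.81 without overlap. None of these passed (adjusted p = 1.0 for each).

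At 10 h a single member passed, and it was higher after UPD: CG6357, annotated as a cysteine protease of the papain family to which cathepsins L and B belong. It was 6.96-fold higher in UPD than in Mock. The percentage of all probe sets that passed was 1.06%, and 0.107% passed with a higher level in UPD. Of the members, 7 had an unadjusted p under 0.05, 6 of them bright. In a bulk sample fewer cells of a type and less RNA per cell cannot be told apart.

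CG6357 had 8.73 and 8.74 in UPD at 10 h, against 6.09 and 5.78 in Mock at 10 h. It had 7.86 and 7.52 in UPD at 4 h, against 6.69 and 7.41 in Mock, and 7.60 and 7.87 in UPD at 2 h, against 7.58 and 7.65 in Mock. Its arrays overlapped between the media at 2 h, lay higher in UPD at 4 h by a difference of 0.64 that did not pass (adjusted p = 1.0), and stood apart at 10 h. The difference at 10 h was 2.80 ± 0.35 (SE, 2 arrays per group, limma adjusted p = 0.027). Within each medium, UPD was 1.00 higher at 10 h than at 2 h (adjusted p = 0.112), and Mock was 1.68 lower at 10 h than at 2 h (adjusted p = 0.212), neither past the threshold. The F test for a change of the UPD effect between the 3 times did not pass for CG6357 (adjusted p = 0.295), nor for any other member, as 0.0% of all probe sets passed and 3 members had an unadjusted p under 0.05.

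The size of the CG6357 difference moved little with the processing, at 2.64 to 3.15 under 22 alternatives, but 9 of them kept the call, with adjusted p-values between 2.85e-09 and 0.63. Leaving out a single array ended the call in 10 of 12 cases, namely any array of 2 or 4 h and replicate 1 of either medium at 10 h, and it held without UPD replicate 2 or Mock replicate 2 of 10 h (adjusted p = 0.043 and 0.0405).

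**Figure D2:**
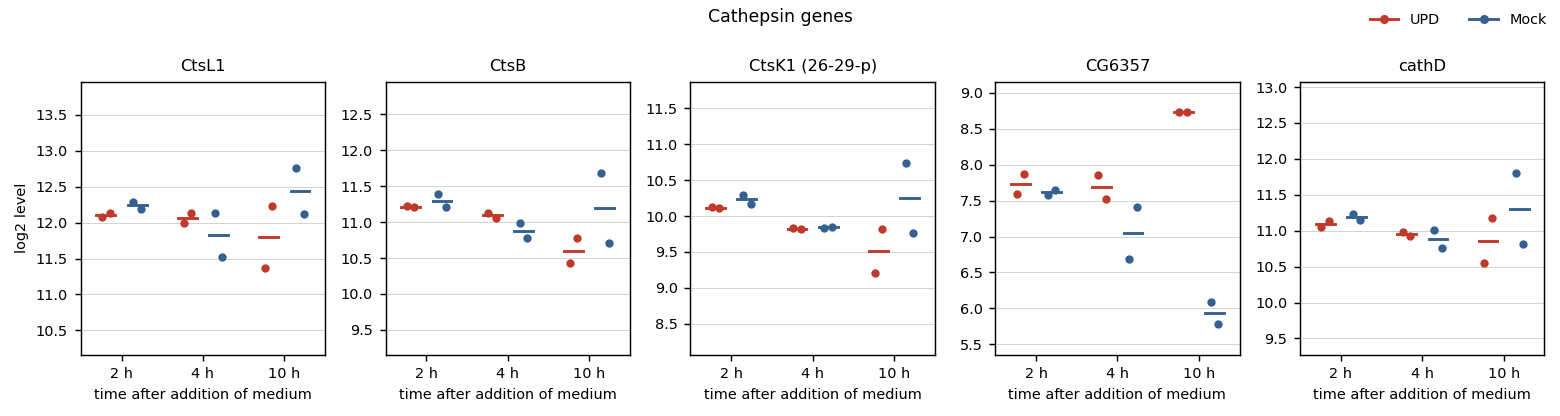
Deposited log2 level of the 5 cathepsin genes by time after addition of the medium, with UPD in red to the left of Mock in blue; points are arrays and bars are means of 2 arrays. The CG6357 points of UPD at 10 h (8.73 and 8.74) lie above those of Mock (6.09 and 5.78), while the media overlap at 10 h in the other 4 genes as deposited.

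None of the other 4 cathepsin genes passed the test at 10 h. CtsL1, which encodes a cathepsin L, had 11.37 and 12.23 in UPD at 10 h against 12.76 and 12.11 in Mock. CtsB, a cathepsin B, had 10.43 and 10.78 in UPD at 10 h against 11.69 and 10.71 in Mock. CtsK1, which encodes the 26-29-p cysteine protease, had 9.20 and 9.82 in UPD at 10 h against 10.74 and 9.77 in Mock. In these 3 genes the deposited values of the media overlapped. The aspartic protease gene cathD had 10.55 and 11.18 in UPD at 10 h against 11.80 and 10.81 in Mock, also overlapping. The differences were −0.64 for CtsL1, −0.59 for CtsB, −0.74 for CtsK1 and −0.45 for cathD, and none passed the test (adjusted p between 0.402 and 0.658 in limma). After quantile normalization every UPD array lay below every Mock array in all 4, with differences of −0.51 for CtsL1, −0.39 for CtsB, −0.43 for CtsK1 and −0.25 for cathD, and none passed. With a filter on low values added, CtsL1 and CtsK1 passed (limma adjusted p = 0.0068 and 0.037).

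At 2 and 4 h these 4 genes kept to a narrow range. CtsL1 had 12.08 and 12.14 in UPD at 2 h against 12.29 and 12.19 in Mock, and 11.99 and 12.13 in UPD at 4 h against 12.14 and 11.52 in Mock. CtsB had 11.22 and 11.20 in UPD at 2 h against 11.39 and 11.20 in Mock, and 11.13 and 11.06 in UPD at 4 h against 10.98 and 10.78 in Mock. Their means at 4 h were higher in UPD by 0.23 for CtsL1, with overlap, and by 0.22 for CtsB, without. CtsK1 had 10.13 and 10.11 in UPD at 2 h against 10.30 and 10.17 in Mock, and 9.83 and 9.81 in UPD at 4 h against 9.84 and 9.84 in Mock. The cathD values were 11.05 and 11.14 in UPD at 2 h against 11.24 and 11.15 in Mock, and 10.98 and 10.93 in UPD at 4 h against 11.01 and 10.76 in Mock. None of these differences passed in limma.

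None of the 31 V-ATPase genes passed the test of UPD against Mock at 10 h. Of the 15 bright ones, 14 had a lower mean in UPD, with differences between −1.43 and 0.06. The median of the 20 bright members was −0.62, beside −0.44 over all 6011 probe sets over level 6. Every UPD array lay below every Mock array in 7 of the 20 bright members, all of them Vha genes, where 39.4% of all probe sets over level 6 did so. After quantile normalization the count was 12 of 20, beside 30.1% of these probe sets.

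The 5 bright V-ATPase genes with the lowest differences at 10 h came from V0, V1 and the accessory subunit. Vha100-2, a subunit a that holds the proton path of V0, had 7.07 and 7.82 in UPD against 9.06 and 8.69 in Mock. VhaAC45, the accessory subunit, had 8.23 and 8.83 in UPD against 10.04 and 9.47 in Mock. VhaPPA1-1, a proteolipid of the V0 ring, had 9.61 and 10.16 in UPD against 11.52 and 10.69 in Mock. All UPD arrays lay below all Mock arrays for these 3 genes, with differences of −1.43, −1.22 and −1.22 that missed the threshold (adjusted p = 0.0885, 0.121 and 0.144).

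Vha55, the B subunit that binds nucleotide in V1, had 8.14 and 8.66 in UPD at 10 h against 9.61 and 9.42 in Mock. Vha100-1, another subunit a, had 6.50 and 6.90 in UPD against 8.08 and 7.38 in Mock. These genes too had both UPD arrays below both Mock arrays, with differences of −1.12 and −1.03 (adjusted p = 0.115 and 0.169). At the other end, Vha14-1 (F) had 10.46 and 11.37 in UPD against 11.26 and 10.45 in Mock, and VhaM9.7-b (e) had 9.94 and 11.09 against 10.88 and 10.22, both overlapping. Their differences were 0.06 and −0.04.

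The other 8 bright V-ATPase genes lay between these ends. VhaSFD (H) had 8.60 and 9.11 in UPD at 10 h against 9.83 and 9.25 in Mock, and VhaAC39-1 (d) had 8.48 and 8.996 against 9.49 and 9.26, both without overlap. Their differences were −0.69 and −0.64 (adjusted p = 0.348 and 0.339). The 6 others overlapped between the media. Vha16-1 had 10.24 and 11.38 in UPD against 11.69 and 11.36 in Mock, and Vha26 had 10.62 and 11.75 against 11.70 and 11.59. Vha44 averaged 8.53 ± 0.67 in UPD and 8.93 ± 0.05 in Mock, and Vha36-1 averaged 10.14 ± 0.51 in UPD and 10.48 ± 0.73 in Mock (SD, n = 2 each). Vha13 had 10.18 and 10.92 in UPD against 10.98 and 10.33 in Mock, and VhaM9.7-c had 7.92 and 8.78 against 8.95 and 8.17. In all 8 genes UPD replicate 1 was the lowest of the 4 arrays of 10 h, and the 6 overlapping ones had differences between −0.71 and −0.10.

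**Figure D3:**
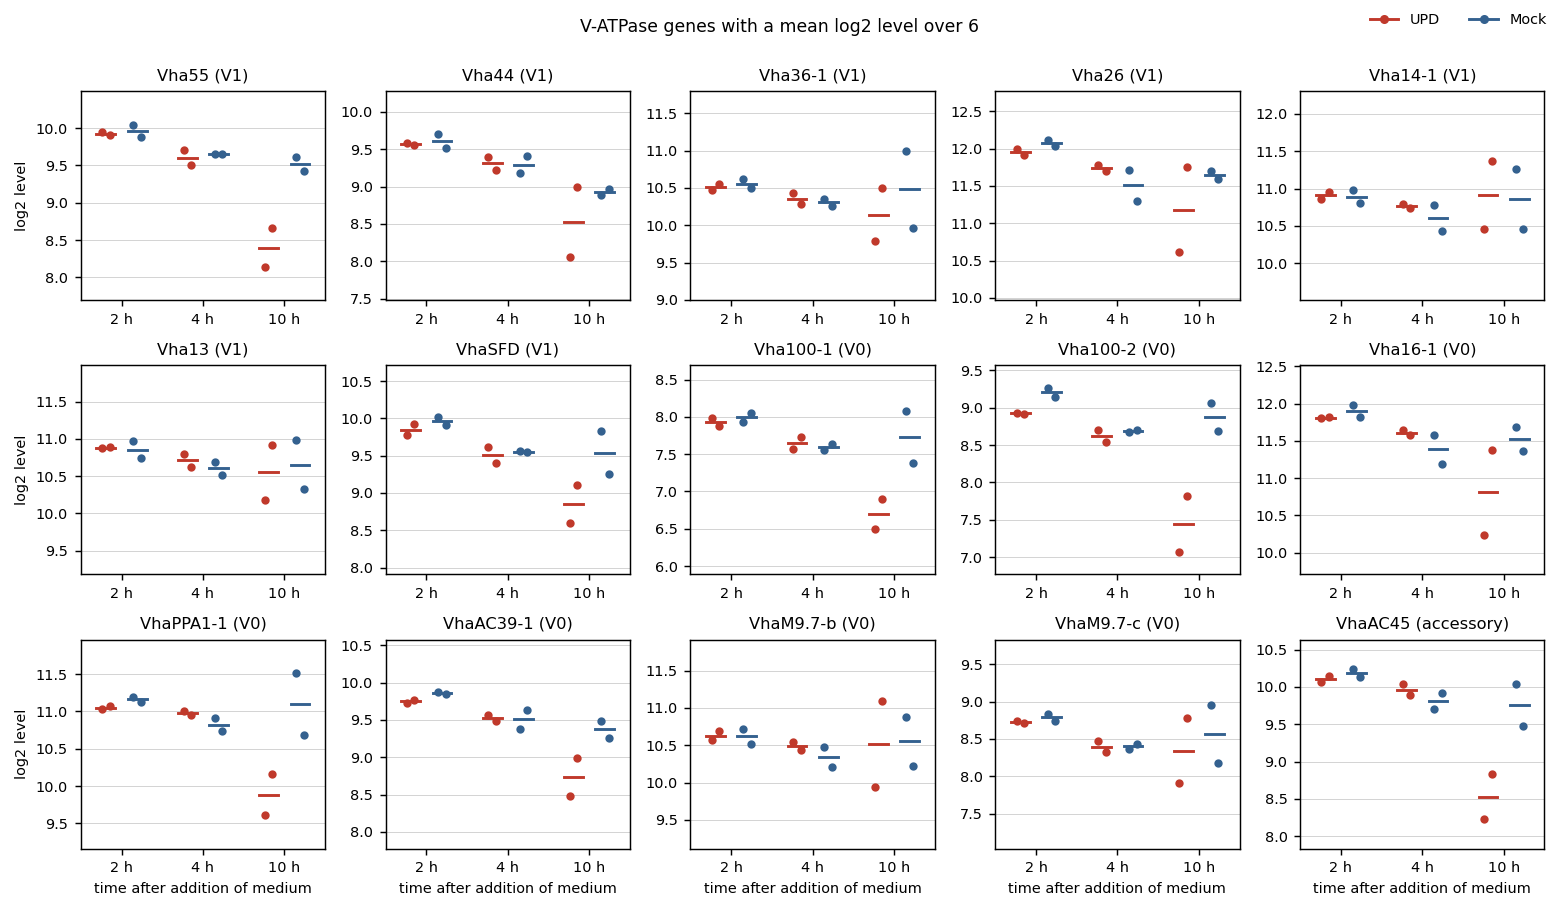
Deposited log2 level of the 15 V-ATPase genes with a mean over 6, by time after addition of the medium, with UPD in red to the left of Mock in blue; points are arrays, bars are means of 2 arrays, and every panel spans the same height. Replicates lie close together at 2 and 4 h and spread at 10 h, where Vha100-2, VhaAC45, VhaPPA1-1, Vha55, Vha100-1, VhaSFD and VhaAC39-1 have both UPD points below both Mock points.

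**Figure D4:**
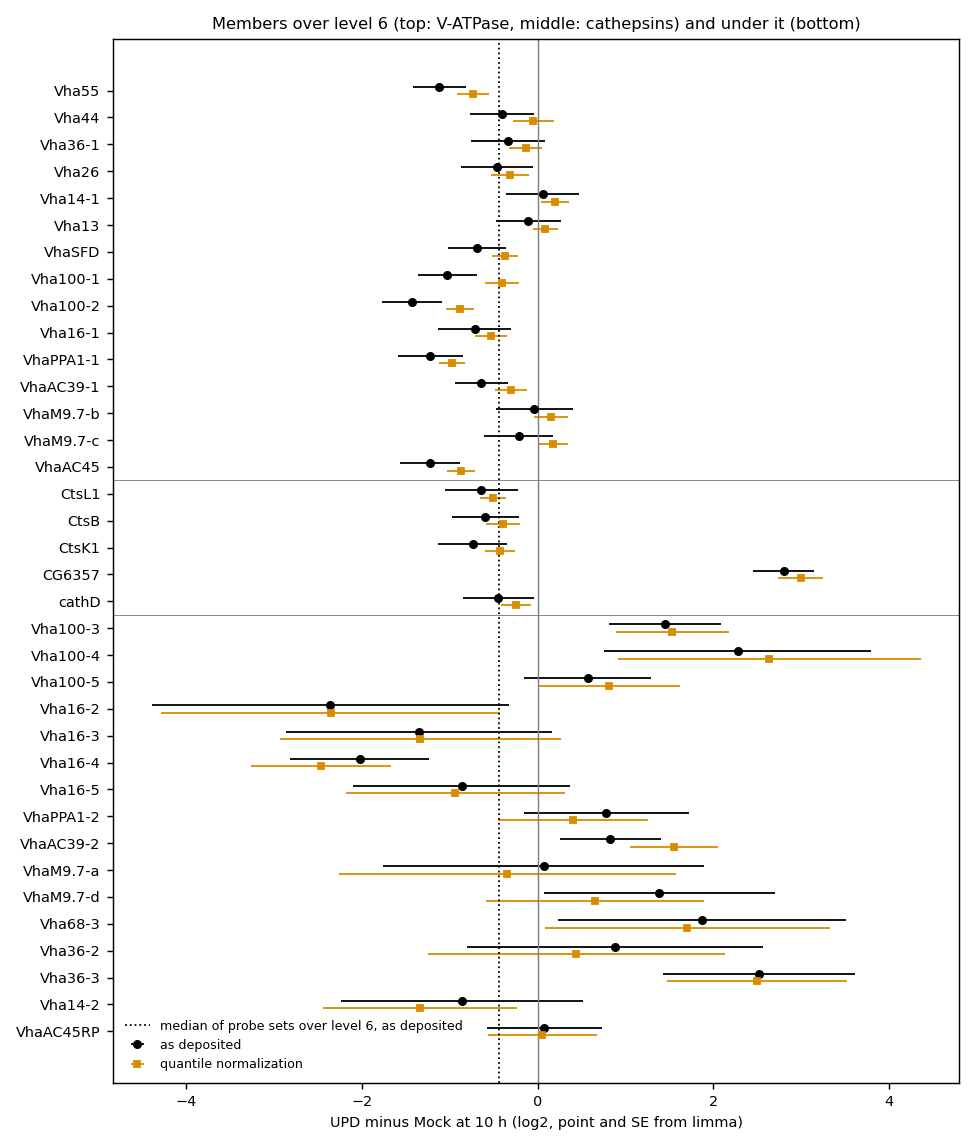
Difference of UPD minus Mock at 10 h on the log2 scale for all 36 members, with points and SE from limma, as deposited (black circles) and after quantile normalization (orange squares); the dotted line is the median of −0.44 over probe sets over level 6, as deposited. CG6357 lies far to the right of the other bright members, and the dim genes in the bottom block have the widest bars.

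Quantile normalization, which gives all arrays the same distribution and took the median over level 6 at 10 h to −0.00, moved these calls. It raised the count at 10 h to 4 members. CG6357 was higher in UPD by 2.99 (adjusted p = 0.00571), and VhaPPA1-1, Vha100-2 and VhaAC45 were lower, with differences of −0.97, −0.88 and −0.87 (limma adjusted p = 0.03, 0.0382 and 0.0394). The median of the bright members was then −0.34. The median, −0.62 as deposited, was −0.18 without UPD replicate 1 of 10 h and −0.36 without Mock replicate 1 of 10 h. After removal of each array's trend with gene length, 3 members passed: CG6357 at 3.15, VhaPPA1-1 at −0.85 and VhaAC45 at −0.72 (adjusted p = 0.00963, 0.0339 and 0.0303). The median of the bright members was then −0.10, and 9 of the 15 bright Vha genes had a lower mean in UPD, where 14 had as deposited.

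Between times, 3 V-ATPase genes fell in UPD, a count near the share over all probe sets. In UPD at 10 h against UPD at 2 h, 3 of the 36 members passed, all of them lower at 10 h. Of all probe sets 9.46% passed in either direction and 8.46% were lower. An unadjusted p under 0.05 was found for 10 of the 36 members and for 5042 of the 18769 probe sets. Vha55 had 8.14 and 8.66 in UPD at 10 h against 9.95 and 9.90 at 2 h, and fell 2.88-fold (−1.53 ± 0.30, SE, limma adjusted p = 0.0295). VhaAC45 had 8.23 and 8.83 at 10 h against 10.07 and 10.15 at 2 h, and fell 2.99-fold (−1.58 ± 0.34, limma adjusted p = 0.0349). Vha100-2 had 7.07 and 7.82 at 10 h against 8.94 and 8.92 at 2 h, and fell 2.79-fold (−1.48 ± 0.34, limma adjusted p = 0.0398). In each of them both arrays of 10 h lay more than 1 log2 unit below both arrays of 2 h. At 4 h UPD had 9.701 and 9.506 for Vha55, 10.04 and 9.89 for VhaAC45 and 8.70 and 8.54 for Vha100-2, between the levels of 2 and 10 h.

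Of the 20 bright members, 12 had both UPD arrays of 10 h below both of 2 h, where 75.2% of all probe sets over level 6 did so. The median difference was −0.69 for these members and −0.80 for all probe sets over level 6. CG6357 was the only bright member with a higher mean at 10 h. After quantile normalization 2 members passed, CG6357 with 1.68 higher (adjusted p = 0.03) and VhaAC45 with −0.95 (adjusted p = 0.0362), and the median was −0.23. Vha55 and Vha100-2 then had −0.88 and −0.63 (adjusted p = 0.0559 and 0.0759), and −0.43 and −0.18 after removal of the length trend (adjusted p = 0.15 and 0.585). VhaAC45 kept its call there, at −0.80 (adjusted p = 0.0326). Leaving out 1 array ended the calls of all 3 Vha genes in 9 of 12 cases and kept them without UPD replicate 2 of 10 h or either Mock array of 10 h; the 9 others were each array of 2 and 4 h and UPD replicate 1 of 10 h. The median was −0.36 without UPD replicate 1 of 10 h and −1.08 without replicate 2.

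In Mock, none of the 36 members passed at 10 h against 2 h, and 0.0% of all probe sets did; 2 members had an unadjusted p under 0.05. Vha55 had 9.61 and 9.42 in Mock at 10 h against 10.05 and 9.88 at 2 h, a difference of −0.45. VhaAC45 differed by −0.43 and Vha100-2 by −0.33, and the bright members had a median of −0.25, against −0.37 over all probe sets over level 6. The direction of this median turned to 0.12 after quantile normalization, where it was 0.05 over level 6, to 0.12 after removal of the length trend and to 0.10 without Mock replicate 2 of 10 h. The dim Vha16-4 differed by 3.02 (adjusted p = 0.274), VhaPPA1-2 by −2.04 (0.371), Vha14-2 by −1.65 (0.641), Vha36-2 by 1.38 (0.767) and VhaAC45RP by −1.08 (0.501). In UPD at 10 h against 2 h, Vha36-2 differed by 2.20 (0.466) and Vha16-4 by 1.28 (0.358).

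At 4 h against 2 h the differences were small in both media. None of the 36 members passed at 4 h against 2 h in UPD, where 0.0107% of all probe sets passed, or in Mock, where 0.0% did, and no member had an unadjusted p under 0.05 in either. All 20 bright members were lower at 4 h than at 2 h in both media by their means. The arrays did not overlap in 18 of 20 in UPD and in 20 of 20 in Mock, as they did in 76.7% and 86.2% of all probe sets over level 6. The medians were −0.18 in UPD and −0.38 in Mock, against −0.20 and −0.34 over level 6.

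The replicates of 10 h differed as a block. UPD replicate 1 lay below replicate 2 in all 20 bright members, with a median of −0.67 for replicate 1 minus replicate 2, and CG6357 differed least. Mock replicate 1 lay above replicate 2 in 19 of 20, with a median of 0.65. The mean of the 15 bright Vha genes was 8.92 and 9.69 on the UPD arrays of 10 h, against 10.20 and 9.68 on the Mock arrays. It lay between 9.84 and 10.30 on the 8 arrays of 2 and 4 h.

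Set against this mean of the same array, chosen as a yardstick after the values were seen, the median SD between replicates at 10 h was 0.14 in UPD and 0.19 in Mock, where it had been 0.48 and 0.46 as deposited. Taking off a mean of 15 of the 20 bright members removes the shift they share, so a lower SD follows from the step itself. The relative levels are a description and were not tested. Those of Vha100-2 were −1.86 and −1.86 in UPD at 10 h against −1.14 and −0.99 in Mock. Those of VhaAC45 were −0.69 and −0.86 in UPD against −0.16 and −0.21 in Mock. Those of Vha14-1 were 1.54 and 1.68 in UPD against 1.06 and 0.77 in Mock. These genes were picked from both ends, and because the levels are centred on the mean of the same 15 genes, some relative differences have to lie above 0 where others lie below.

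Over the 15 genes the relative difference between UPD and Mock at 10 h ran from −0.79 for Vha100-2 through −0.59 for VhaAC45, −0.58 for VhaPPA1-1, −0.48 for Vha55 and −0.39 for Vha100-1 up to 0.42 for VhaM9.7-c, 0.53 for Vha13, 0.60 for VhaM9.7-b and 0.70 for Vha14-1. At 2 h it was −0.21 for Vha100-2 and between −0.05 and 0.10 for the other 14 genes. Among the cathepsins the relative difference at 10 h was 3.44 for CG6357, and −0.00 for CtsL1, 0.05 for CtsB, −0.10 for CtsK1 and 0.19 for cathD. The ratios within an array show unequal change among these genes and do not say which of them kept its level.

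**Figure D5:**
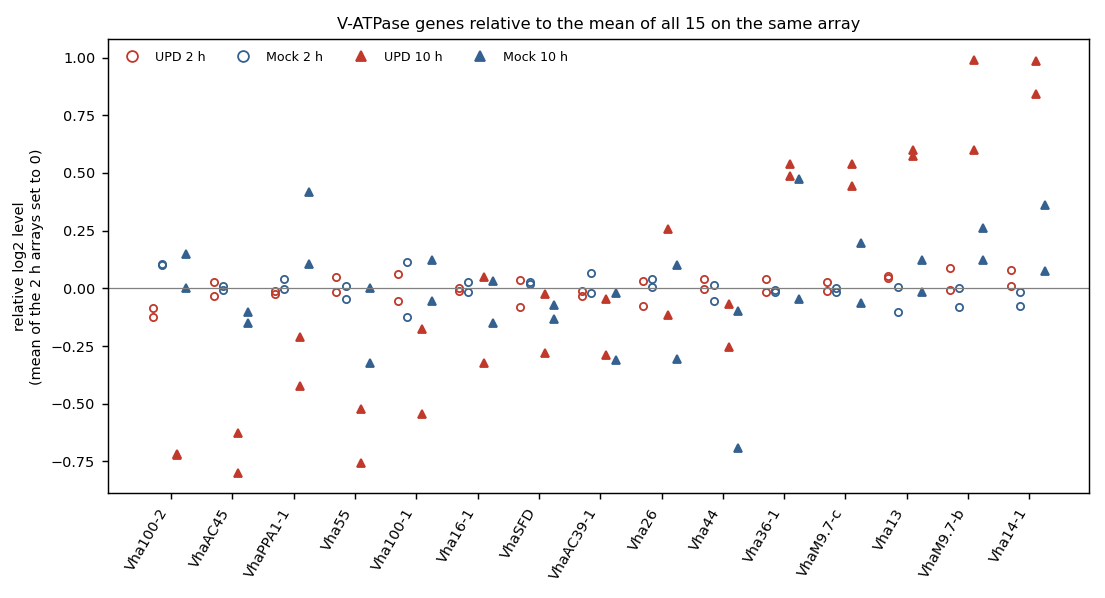
Level of the 15 bright V-ATPase genes relative to their common mean on the same array, with each gene's mean over the 4 arrays of 2 h set to 0; UPD in red and Mock in blue, open circles for 2 h and filled triangles for 10 h, genes ordered by the difference at 10 h. The genes at the left have lower UPD triangles and those at the right have higher ones, while the circles of 2 h lie near 0.

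The order of the genes at 10 h went with gene length. Across the 20 bright members the difference of UPD minus Mock at 10 h had a Spearman correlation of −0.53 with genomic gene length, and across 5282 probe sets over level 6 with a known length it was −0.48. These points share the 4 arrays and the genes are not independent replicates. The 11 bright members shorter than 2500 bases had a median of −0.34 and the 9 longer ones −0.69, against −0.22 and −0.74 over all. VhaAC45 and VhaPPA1-1 are among the short ones, with 2214 and 1732 bases, and Vha14-1, VhaM9.7-c, Vha13 and VhaM9.7-b have 659, 848, 1369 and 1354 bases. Vha100-2 and Vha55 have 8847 and 4068 bases. The second probe set of Vha16-1 differed by −0.82 at 10 h, and the one used by −0.71.

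Genes that work with these members were described from lists, as counts. For partners of the V-ATPase, 2 of 3 genes were measured: mtd, a fly member of the TLDc family that in mammals binds the pump, and Rbcn-3B, a rabconnectin known to promote its assembly. Neither passed at 10 h between the media (−0.92 and −1.76, adjusted p = 0.144 and 0.0967). Both passed as lower in UPD at 10 h than at 2 h, where 8.46% of all probe sets did. The level of mtd was 6.48 ± 0.12 at 10 h against 7.77 ± 0.05 at 2 h (SD, n = 2 each, limma adjusted p = 0.0352). For Rbcn-3B it was 4.68 ± 0.66 against 6.75 ± 0.11 (limma adjusted p = 0.0338).

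Of 7 other measured cathepsin-like proteases and inhibitors, none passed in any comparison, with 1 at an unadjusted p under 0.05 at 10 h; the lowest p-values there were those of CtsK2, CG15369 and CtsF, with differences of −2.75, −2.54 and −0.59. Of 19 other lysosomal hydrolases and activators none passed between the media; Hexo2, a hexosaminidase, differed by −1.34 at 10 h (adjusted p = 0.0968), Sgsh, a sulfamidase, by −0.88 and the lipase gene Lip4 by −0.81. Of the 19, Sgsh alone passed in UPD at 10 h against 2 h, lower by 1.36 (limma adjusted p = 0.0385), beside 8.46% of all probe sets that passed as lower. For the 12 hydrolases over level 6 the median at 10 h between the media was −0.22.

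Of 10 measured lysosomal membrane proteins and transporters, 4 were lower in UPD at 10 h than at 2 h in limma, where 8.46% of all probe sets were, and none passed between the media. That share covers probe sets of all levels, while 8 of these 10 genes lay over level 6. The 4 were spin, a lysosomal efflux transporter, with −1.45 (adjusted p = 0.0446), Lerp, a sorting receptor for lysosomal enzymes, with −1.33 (0.0456), Npc1a, a sterol transporter, with −1.40 (0.0427), and ClC-c, a chloride channel family member, with −1.52 (0.0306). At 10 h between the media, Lerp differed by −1.37, ClC-c by −1.08 and spin by −1.22 (adjusted p = 0.0878, 0.126 and 0.127). For the 8 over level 6 the median was −1.29 between 10 and 2 h in UPD, beside −0.80 over all probe sets over level 6.

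Of 13 measured genes of lysosomal TORC1 signalling, the nutrient pathway that reads the state of the lysosome, 1 passed at 10 h between the media. Iml1, a GATOR1 subunit that restrains TORC1, had 4.25 ± 0.43 in UPD against 6.57 ± 0.19 in Mock (SD, n = 2 each, limma adjusted p = 0.0472). In UPD at 10 h against 2 h, 4 fell: Iml1 by 2.43, mTor, the kinase itself, by 2.03, and Tsc1 and gig, which form the TSC complex that restrains it, by 1.80 and 1.57 (limma adjusted p between 0.0188 and 0.0306). At 10 h between the media gig and Tsc1 differed by −1.28 and −1.44 (adjusted p = 0.0743 and 0.074). All of these calls were lower in UPD at 10 h. Of all probe sets, 0.954% passed as lower between the media at 10 h. In UPD at 10 h against 2 h, 8.46% passed as lower. Of the 13 genes, 10 lay over the level that divides bright from dim members, whereas these shares cover probe sets of all levels. For these 10 the median was −0.56 between the media at 10 h and −0.77 between 10 and 2 h in UPD. Over all probe sets over that level it was −0.44 and −0.80.

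Of the 18 blood cell markers, 4 passed between the media at 10 h, all of them lower in UPD, where 0.954% of all probe sets passed with a lower level. They were Col4a1 and vkg, which encode collagen IV chains, with −2.33 and −2.35, and Ppn and Pxn, further matrix proteins, with −2.33 and −1.87 (limma adjusted p between 0.027 and 0.0477). The mean in UPD was below that in Mock in 14 of the 18 and above it in eater, gcm, PPO1 and PPO2, none of which passed. For the 8 over level 6 the median was −1.56, beside −0.44 over all probe sets over that level. The part of these markers in the members' differences was not tested.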

How the data were processed

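Total RNA of 12 wells was hybridised to Affymetrix arrays, 2 per medium and time. The authors deposited 1 log2 value per probe set and array. The logarithm's base is inferred from the values, which run from −15.82 to 13.96; summarising tool and normalization: not given in the sources used here. Medians are 2.327 in every UPD array and 2.375 in every Mock array. Whether the media were processed as separate sets is not given, and such a step could not be told apart from the medium. Values were used as deposited. Of 18952 probe sets, 183 controls were left out, and 18769 were tested in R 4.3.3 with limma 3.58.1: 6 group means over 12 arrays, empirical Bayes moderation, two-sided tests and Benjamini-Hochberg adjustment within each contrast (threshold 0.05). The fit was tested on simulated data.

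Genes were named from the platform annotation in GEO and brought to current symbols with RefSeq's gene table, which also gave genomic gene lengths; 13544 of 13647 single-gene probe sets matched. Each gene is represented by its probe set with the highest mean. Named are all cathepsins, the Vha genes past the threshold, up to 5 Vha genes per UPD contrast and per 10 h contrast with the largest difference among those whose arrays do not overlap, and, from the other lists, genes past the threshold and the 3 with the lowest p at 10 h. Other Vha genes at 10 h were named after their values were seen. The members and lists were chosen with earlier results of these data known. Whether the 2 replicates of a group came from separate cultures is stated only as biological replicates.

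Replicate numbers recur in all groups. Deviations of same-numbered UPD and Mock arrays correlated with −0.18, −0.26 and 0.02 at 2, 4 and 10 h, so the numbers were not taken to pair the arrays. Over all pairs of groups this correlation ran from −0.52 to 0.6. Whether same-numbered arrays of different times share a source was not tested. The alternatives were quantile normalization, a common median, a filter on low values, a variance trend with robust moderation, array weights, a replicate block, fits on fewer arrays, removal of a gene length trend, the mean over a gene's probe sets and leaving out each array.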

Additional observations from a re-analysis of the deposited data

How the results depend on the processing

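The 4 calls made on the deposited values, CG6357 at 10 h between the media and 3 Vha genes in UPD at 10 h against 2 h, kept their direction under the alternatives run. The balance of calls did not. For UPD against Mock at 10 h, 1 of 36 members passed, 1 higher and 0 lower. The count was 4 after quantile normalization (1 higher, 3 lower), 6 with a filter on low values and 6 under robust moderation with a variance trend (1 and 5 in both), 9 with quantile normalization and the filter together (1 and 8), 3 after removal of the gene length trend (1 and 2), and 0 with array weights and with the compared arrays only. For UPD at 10 h against 2 h, 3 passed, all lower, and the count was 9 with the filter (1 higher, 8 lower), 10 with the variance trend (1 and 9), 9 with quantile normalization and the filter (3 and 6), 2 with quantile normalization or without the length trend (1 and 1 in both), and 0 with the compared arrays only. The variance trend called 1 member, CG6357, for Mock at 10 h against 2 h and 1 for the F test between times, the filter called 1 and quantile normalization with the filter called 4 for the F test. Leaving out each array gave counts from 0 to 1 and from 0 to 7 for the 10 h contrasts of medium and of time in UPD. With the replicate number as a block both counts were 0, and the block changed no other count of members. The numbers were not taken to pair the arrays. Combining quantile normalization with the filter was chosen after seeing the data.

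The median difference of the bright members at 10 h between the media became −0.098 after removal of the length trend, and in Mock at 10 h against 2 h it became 0.123 after quantile normalization and 0.117 after removal of the length trend. At 2 h between the media it became 0.028 after removal of the length trend, and −0.038 at 4 h after quantile normalization. At 4 h against 2 h it became 0.005 in UPD and 0.009 in Mock after quantile normalization, and 0.012 in UPD and −0.043 in Mock after removal of the length trend. At 10 h against 2 h in UPD it became −0.23 after quantile normalization and 0.13 after removal of the length trend, and ran from −1.08 to −0.36 over left-out arrays. The cause of these moves was not tested, and the fits without an array also rest on fewer arrays. With 2 arrays per group and no detection calls used, values of the dim members have no known floor.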

Other observations

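Autophagy genes, whose products deliver cytoplasm to the lysosome, were lower in UPD at 10 h than at 2 h in 8 of 24 measured cases in limma, and none passed as higher, where 8.46% of all probe sets passed as lower. Of the 24, 18 lay over level 6, whereas that share covers probe sets of all levels. Atg2, a lipid transfer protein of the growing autophagosome, had 5.38 ± 0.20 in UPD at 10 h against 7.54 ± 0.01 in UPD at 2 h (SD, n = 2 each, limma adjusted p = 0.0128). It was also the only gene of this list that passed between the media at 10 h, where Mock had 7.36 ± 0.06 (−1.97, limma adjusted p = 0.0331). Atg1, the kinase that starts the process, had 6.99 ± 0.32 in UPD at 10 h against 8.71 ± 0.02 at 2 h, and ref(2)P, the fly p62 adaptor, had 8.63 ± 0.48 against 10.24 ± 0.12 (limma adjusted p = 0.0229 and 0.0295). Atg4a, Atg10, Atg17, Atg18b and Vps15 also fell, by between 1.22 and 1.89. Vps15 and Atg1 differed by −1.38 and −1.30 between the media at 10 h (adjusted p = 0.0696 and 0.0854). For the 18 autophagy genes over level 6 the median was −0.70 between the media at 10 h and −1.15 between 10 and 2 h in UPD, beside −0.44 and −0.80 over all probe sets over that level.

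Of 22 measured genes of endosome to lysosome traffic, 4 fell in UPD at 10 h against 2 h in limma, beside the same 8.46%. They were dor (by 1.39) and Vps39 (by 1.32), both subunits of the HOPS tether, Hrs of the ESCRT machinery (by 1.37), and Vps8 of the CORVET tether. Their adjusted p-values in limma lay between 0.0333 and 0.0481. All 22 lay over the level that divides bright from dim members, whereas that share covers probe sets of all levels. None of the 22 passed between the media at 10 h, where 7 had an unadjusted p under 0.05. There dor, Vps39 and Vps8 differed by −1.43, −1.22 and −1.48 (adjusted p = 0.0694, 0.0816 and 0.0895). For the 22 genes the median was −0.36 between the media at 10 h and −0.82 between 10 and 2 h in UPD. Over all probe sets over that level it was −0.44 and −0.80.

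Of 4 measured JAK/STAT genes, 3 passed as lower in UPD at 10 h than at 2 h, where 8.46% of all probe sets did. They were the receptor gene dome, its antagonist et and the phosphatase gene Ptp61F, which fell by 1.89, 2.22 and 1.35 (limma adjusted p between 0.0204 and 0.0459). Between the media at 10 h they differed by −0.98, −1.96 and −0.25, and none passed (adjusted p = 0.161, 0.0551 and 0.787). At the earlier times dome had 8.62 and 8.59 in UPD at 2 h against 8.07 and 8.07 in Mock, and 8.59 and 8.54 in UPD at 4 h against 7.64 and 7.65 in Mock. Ptp61F had 8.90 and 8.86 in UPD at 4 h against 8.26 and 8.56 in Mock. These lay higher in UPD without overlap. Stat92E, the remaining gene, lay lower in UPD at 2 h without overlap (10.13 and 10.12 against 10.38 and 10.39 in Mock). Its arrays overlapped at 4 h. The means of et were lower in UPD at 2 h (5.30 against 5.44) and at 4 h (4.84 against 4.93), with overlap. None of the 4 genes passed between the media at 2 or 4 h. Of the 10 measured genes of other cell types, elav and brp, both neuronal, fell in UPD at 10 h against 2 h, beside the same 8.46%. Their differences were −2.78 and −2.53 (limma adjusted p = 0.013 and 0.0327). At 10 h between the media Mlc2, brp and elav differed by 5.04, −1.53 and −1.34, none past the threshold.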
